A study of Homo sapiens with 8 samples.

Results

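The APOBEC3 cytidine deaminases were examined in RNA-seq libraries of 2 breast epithelial cell lines that overexpress the long non-coding RNA *MALINC1*. The family has 7 genes, and 5 of them (*APOBEC3B*, *APOBEC3C*, *APOBEC3D*, *APOBEC3F* and *APOBEC3G*) are among the 13842 genes of the deposited expression table. *APOBEC3A* and *APOBEC3H* were not analysed here. The members were chosen by their symbols in that table, which holds genes above a level of expression, and the family itself was selected with earlier results of these data known. The p-values below therefore set the size of each change against the spread between libraries, and they are no independent evidence for the family.

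MCF10A is an immortalized, non-malignant line of human breast epithelium. DCIS.COM is a derivative of the MCF10 series that forms lesions resembling ductal carcinoma in situ. Each line was stably transduced with a lentiviral vector, either pLOC-empty or pLOC-*MALINC1*, and selected with blasticidin, so that the control cells also carry the vector and its resistance gene. There were 2 libraries in each of the 4 groups and 8 in all, made from total RNA of subconfluent plates. The transduced cells were selected populations. The labels do not say whether the 2 libraries of a group came from separate cultures, so the spread between them may be technical. They also name no separate transductions, so an effect of *MALINC1* cannot be told apart from a difference between selected populations. Below, a change or response with *MALINC1* means the difference between the vectors. MCF10A was grown with horse serum, epidermal growth factor, hydrocortisone, insulin and cholera toxin, whereas DCIS.COM received horse serum alone. The cell line and its medium cannot be told apart in any comparison between the lines.

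APOBEC3 enzymes convert cytosine to uracil in single-stranded DNA. They are known as restriction factors that mutate or block retroviruses and retrotransposons, and *APOBEC3G* was first known for its action on HIV-1. *APOBEC3B*, a nuclear enzyme, has been linked to the cytosine mutations of breast tumors. The genes stand side by side and in the same orientation in a cluster that arose by duplication, so that long stretches of their transcripts are alike.

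In GRCh37 (hg19) the cluster covers 151327 bp of chromosome 22, from 39348746 to 39500072, and all 7 genes lie on the plus strand. *APOBEC3B* spans 39378352 to 39388809, *APOBEC3C* 39410262 to 39416357, *APOBEC3D* 39417118 to 39429282, *APOBEC3F* 39436609 to 39451977 and *APOBEC3G* 39473072 to 39483748. The gap between *APOBEC3C* and *APOBEC3D* is only 760 bp, and GENCODE lists a further protein-coding gene on the plus strand that overlaps both. *APOBEC3B* is overlapped by the antisense gene *APOBEC3B-AS1*, and the strand setting of the read counting is not given in the sources used here.

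The catalytic site of these enzymes holds a zinc ion through a histidine and 2 cysteines, beside a catalytic glutamate. Translation of the annotated coding sequences gave 1 such motif in *APOBEC3C* (190 residues) and 2 in *APOBEC3B* (382 residues), *APOBEC3D* (386), *APOBEC3F* (373) and *APOBEC3G* (384). The exonic coding sequence of the motif is shown for the members below, because it shows where a read can be assigned by its own sequence and where it cannot. Sequences are those of GRCh37 on the plus strand, 5′ to 3′, and capitals mark the codons of the histidine, the glutamate and the 2 cysteines.
*APOBEC3B*, first motif, chr22:39381838-39381942: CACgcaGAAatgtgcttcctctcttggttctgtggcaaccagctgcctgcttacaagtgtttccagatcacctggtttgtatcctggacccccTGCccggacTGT
*APOBEC3F*, first motif, chr22:39440967-39441071: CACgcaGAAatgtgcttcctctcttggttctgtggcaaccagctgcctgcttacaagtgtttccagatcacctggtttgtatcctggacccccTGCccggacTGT
*APOBEC3F*, second motif, chr22:39448100-39448204: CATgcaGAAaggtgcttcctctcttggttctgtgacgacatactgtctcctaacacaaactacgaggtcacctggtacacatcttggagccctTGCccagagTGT
*APOBEC3D*, second motif, chr22:39427720-39427824: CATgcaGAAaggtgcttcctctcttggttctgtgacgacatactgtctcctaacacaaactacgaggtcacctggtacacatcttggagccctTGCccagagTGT
*APOBEC3C*, single motif, chr22:39413792-39413896: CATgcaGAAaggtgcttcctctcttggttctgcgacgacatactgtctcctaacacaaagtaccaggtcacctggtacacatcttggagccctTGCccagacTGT
*APOBEC3G*, second motif, chr22:39482317-39482421: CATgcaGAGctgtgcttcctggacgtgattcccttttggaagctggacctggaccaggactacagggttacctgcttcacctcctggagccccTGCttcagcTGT

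The first motif of *APOBEC3B* and the first of *APOBEC3F* had the same 105 bases, as had the second motifs of *APOBEC3D* and *APOBEC3F*. The motif of *APOBEC3C* differed from the latter pair at 4 of 105 bases, whereas the second motif of *APOBEC3G* was 56.2% identical to that of *APOBEC3F*. Over whole transcripts, 20.5% of the 76-base windows of *APOBEC3B*, the length of 1 read, occurred in another member, of which 222 windows were shared with *APOBEC3A*. This share was 10.9% in *APOBEC3D*, 9.54% in *APOBEC3G*, 7.30% in *APOBEC3F* and 0.234% in *APOBEC3C*. Values of *APOBEC3C* thus rest almost wholly on sequence of its own, and those of the other members are less certain. The reads were paired, and a read may be placed by its mate, so that the shares do not measure this uncertainty. For *APOBEC3D*, 2046 of 2555 windows also occur in the protein-coding gene that overlaps it.

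The libraries held 20604377 to 37550457 reads on genes. *MALINC1* checked the labels: it had 24 to 34 reads in the 4 pLOC-empty libraries and 311 to 840 in the 4 pLOC-*MALINC1* libraries, a log2 fold change of 3.27 (SE 0.19, adjusted p = 3.97e-08) in MCF10A and 4.04 (SE 0.19, adjusted p = 6.93e-09) in DCIS.COM. All 14 markers of breast epithelium were detected in every library, with a summed level of 10116 to 45096 CPM. Of 18 leukocyte markers, 4 were in the table (*CD8A*, *CD14*, *CD68* and *CORO1A*), with a summed level of 9.42 to 20.2 CPM, highest in MCF10A. The sum was carried by *CD68*, *CORO1A* and *CD14*, whereas *CD8A*, a T cell marker, had at most 1 read in the MCF10A pLOC-empty libraries and 1.56 ± 0.592 CPM (SD, n = 2) in DCIS.COM pLOC-empty, at least 8.08-fold higher. The signal recognition particle RNAs *RN7SL1* and *RN7SL2* took 8.22 to 15.7% of the reads. In bulk RNA, fewer cells that express a gene and less RNA per cell cannot be told apart.

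The levels of the 5 genes were low in MCF10A and higher in DCIS.COM, as the plot of every library shows. Values are given as CPM, the normalized read count of the deposited table scaled to library size, in which 0 reads have the value 0.0713.

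**Figure D1:**
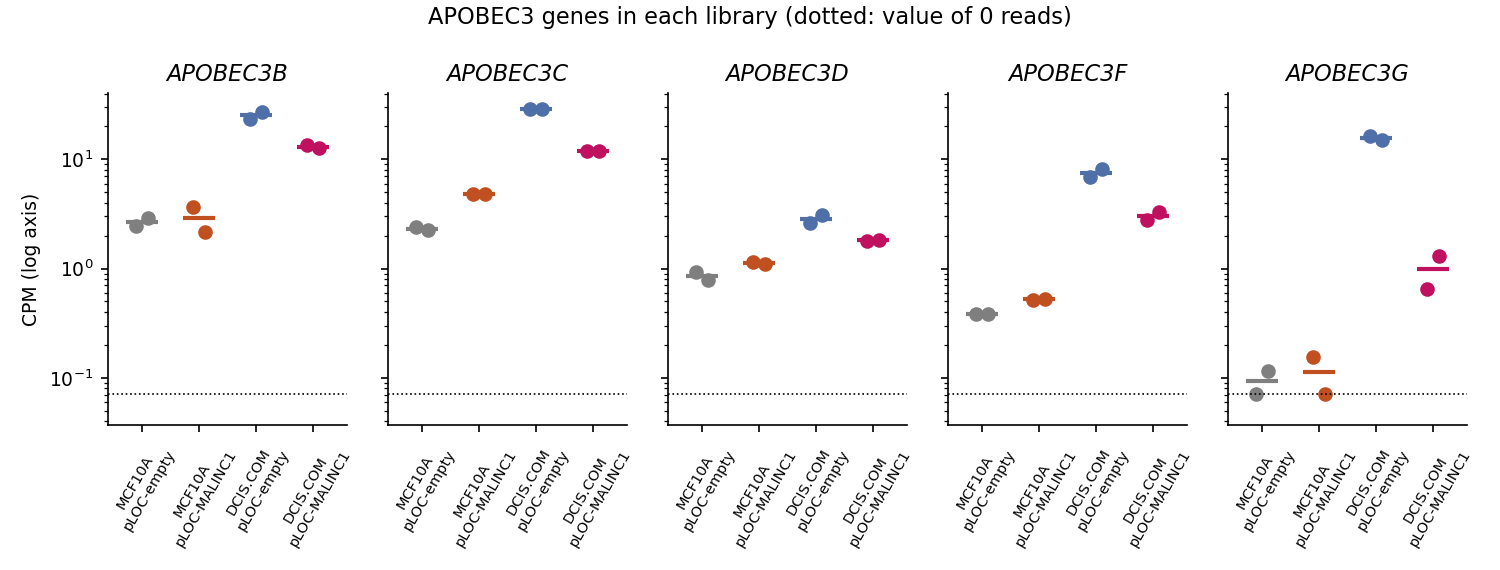
CPM of the 5 measured APOBEC3 genes on a log axis, with 1 panel for each gene, 1 point for each library and a bar for the mean of the 2 libraries of a group; the dotted line is the value given to 0 reads (0.0713 CPM). In each panel the DCIS.COM pLOC-empty libraries stand highest, and *APOBEC3G* in MCF10A lies at or near the line.

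*APOBEC3C*, a single-domain member, had 2.38 and 2.24 CPM in MCF10A pLOC-empty and 4.84 and 4.83 CPM in MCF10A pLOC-*MALINC1*. In DCIS.COM it had 29.2 and 28.8 CPM with pLOC-empty and 11.96 and 11.98 CPM with pLOC-*MALINC1*. The 4 groups did not overlap, and the gene was higher with *MALINC1* in MCF10A and lower with *MALINC1* in DCIS.COM.

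*APOBEC3B* had 2.45 and 2.91 CPM in MCF10A pLOC-empty and 3.69 and 2.15 CPM in MCF10A pLOC-*MALINC1*, so that these groups overlapped. In DCIS.COM its level was 23.5 and 27.0 CPM with pLOC-empty and 13.5 and 12.7 CPM with pLOC-*MALINC1*, without overlap. The MCF10A pLOC-*MALINC1* libraries, with 130 and 55 reads, differed by 1.74 times after scaling, which is more than counting error (exact binomial test, adjusted over 20 pairs of libraries, p = 0.00889).

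*APOBEC3F*, a double-domain restriction factor, had 0.382 and 0.381 CPM (9 and 7 reads) in MCF10A pLOC-empty and 0.517 and 0.525 CPM (16 and 12 reads) in MCF10A pLOC-*MALINC1*. It reached 6.88 and 8.19 CPM in DCIS.COM pLOC-empty and 2.78 and 3.32 CPM in DCIS.COM pLOC-*MALINC1*. The groups did not overlap, but the MCF10A values rest on few reads, with exact Poisson 95% intervals of 0.142 to 0.589 and 0.125 to 0.639 CPM for the pLOC-empty libraries that cover counting error only.

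*APOBEC3D*, also a double-domain member, had the narrowest range across groups. It had 0.933 and 0.780 CPM in MCF10A pLOC-empty, 1.16 and 1.09 in MCF10A pLOC-*MALINC1*, 2.59 and 3.08 in DCIS.COM pLOC-empty and 1.79 and 1.84 in DCIS.COM pLOC-*MALINC1*. Each group stood apart from the next in this order of levels.

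*APOBEC3G* was at the limit of detection in MCF10A, with 0 and 1 reads in the pLOC-empty libraries and 3 and 0 reads in the pLOC-*MALINC1* libraries. A count of 0 had exact Poisson upper limits of 0.127 CPM in the first pLOC-empty library and 0.139 CPM in the second pLOC-*MALINC1* library. In the same libraries 3 reads, the level taken as the floor, were 0.103 and 0.113 CPM. In DCIS.COM pLOC-empty the gene had 349 and 312 reads, or 16.3 and 15.0 CPM, and in DCIS.COM pLOC-*MALINC1* it had 20 and 42 reads, or 0.654 and 1.31 CPM. The latter libraries differed from each other by 2.13 times, more than counting error (exact binomial test, adjusted p = 0.0490), yet both were far below the pLOC-empty libraries.

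In *APOBEC3C*, *APOBEC3D* and *APOBEC3F* the groups stood in 1 order without overlap, in which DCIS.COM pLOC-empty was followed by DCIS.COM pLOC-*MALINC1*, MCF10A pLOC-*MALINC1* and MCF10A pLOC-empty. Over all genes 4.83% stood in this order without overlap. The step between the MCF10A groups did not pass the test for *APOBEC3D* or *APOBEC3F*, as given below. *APOBEC3B* and *APOBEC3G* kept the first places of this order, but their MCF10A groups could not be ordered.

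The first comparison sets pLOC-*MALINC1* against pLOC-empty in MCF10A. Only *APOBEC3C* rose past both thresholds (adjusted p under 0.01 and over 2-fold), with a mean of 4.83 ± 0.0034 CPM against 2.31 ± 0.0995 (SD, n = 2) and a log2 fold change of 1.07 (SE 0.096, adjusted p = 1.86e-06). Over all genes 2.99% were called higher in this comparison, and 1 of the 5 members was. Its change lay close to the 2-fold threshold, and with a pseudocount of 0.5 CPM the log2 fold change was 0.94, so that no member was called.

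The log2 fold change in MCF10A was 0.45 (SE 0.20, adjusted p = 0.0707) for *APOBEC3F* and 0.40 (SE 0.19, adjusted p = 0.105) for *APOBEC3D*, neither of which passed the test. *APOBEC3B* had a log2 fold change of 0.08 with a 95% interval of -0.36 to 0.51, and its sign turned when either the first pLOC-empty or the first pLOC-*MALINC1* library was left out (-0.04 and -0.31). For *APOBEC3G* both groups were at the floor, and no fold change is given.

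The second comparison does the same in DCIS.COM. There *APOBEC3C*, *APOBEC3F* and *APOBEC3G* fell past both thresholds, which makes 3 of 5 members beside 3.08% of all genes called lower. No member was called higher. The median log2 fold change of the members was -1.28, and that of all 13842 genes was 0.01.

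The fall of *APOBEC3G* was the steepest of the members, from 15.7 ± 0.978 to 0.983 ± 0.466 CPM (SD, n = 2). Its log2 fold change was -4.08 (SE 0.41, adjusted p = 6.56e-06), 16.9-fold lower with a 95% interval of 9.04 to 31.5. In the order of log2 fold changes over all genes it ranked 39 from the lowest. Leaving out 1 library at a time gave values from -4.58 to -3.57, and a pseudocount of 1 CPM gave -3.14.

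The level of *APOBEC3F* fell from 7.53 ± 0.924 to 3.05 ± 0.384 CPM, with a log2 ratio of -1.30 (SE 0.20, adjusted p = 0.000164). That of *APOBEC3C* fell from 29.0 ± 0.291 to 11.97 ± 0.0198 CPM, with a log2 ratio of -1.28 (SE 0.096, adjusted p = 4.82e-07). The 2 genes thus changed by similar amounts at levels that differed several-fold.

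*APOBEC3B* and *APOBEC3D* were lower in both pLOC-*MALINC1* libraries of DCIS.COM without being called. *APOBEC3B* had 25.3 ± 2.52 and 13.07 ± 0.570 CPM, a log2 fold change of -0.95 (SE 0.20, adjusted p = 0.00200) that passed the p threshold and stayed short of 2-fold. *APOBEC3D* had 2.83 ± 0.346 and 1.82 ± 0.0389 CPM, with a log2 fold change of -0.64 (SE 0.19, adjusted p = 0.0181). At an adjusted p under 0.05 and any fold change all 5 members were lower in DCIS.COM with *MALINC1*, beside 22.7% of all genes.

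**Figure D2:**
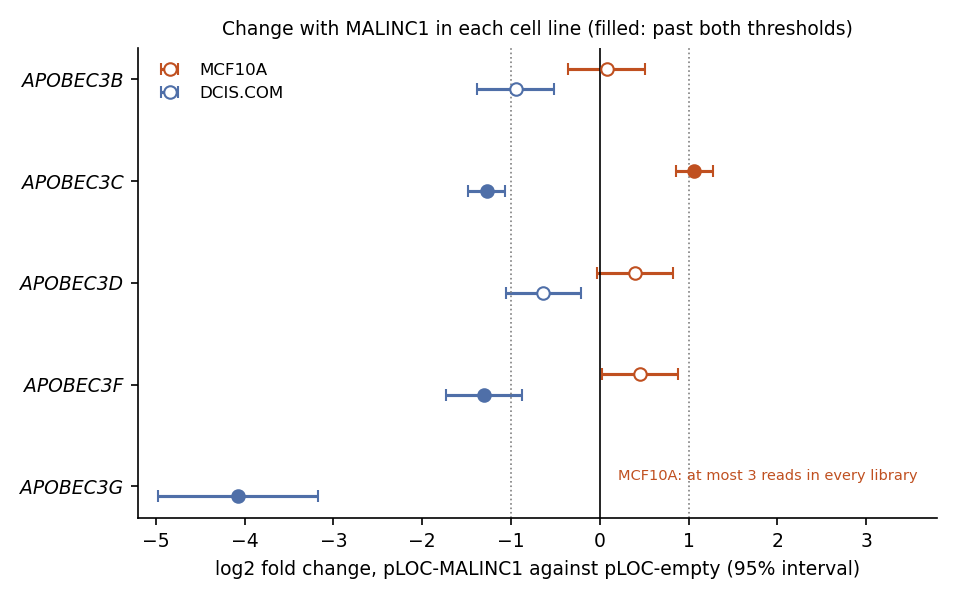
Log2 fold change of each measured APOBEC3 gene between pLOC-*MALINC1* and pLOC-empty in MCF10A and in DCIS.COM, with 95% intervals from the fit over all genes; filled points passed both thresholds, and dotted lines mark 2-fold. All 5 DCIS.COM points lie left of 0, and *APOBEC3C* is filled on opposite sides in the 2 lines; *APOBEC3G* in MCF10A has no point because no library held more than 3 reads.

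The third comparison tests whether the response to *MALINC1* differed between the lines. The difference (DCIS.COM minus MCF10A) passed both thresholds for all 5 members, in each with the lower response in DCIS.COM, beside 5.22% of all genes called in this direction. For *APOBEC3C* it was -2.34 (SE 0.14, adjusted p = 3.80e-08), the only member called in both lines and in opposite directions. For *APOBEC3F* it was -1.75 (SE 0.28, adjusted p = 0.000224).

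*APOBEC3B* (-1.03, SE 0.28, adjusted p = 0.00959) and *APOBEC3D* (-1.03, SE 0.28, adjusted p = 0.00809) passed narrowly. Both dropped out under either larger pseudocount, under 3 other scalings, and when any library other than the first MCF10A pLOC-empty or the second MCF10A pLOC-*MALINC1* was left out, and 3 of 5 members then stayed called. The difference for *APOBEC3G* rests on MCF10A groups at the floor, so that its size depends on the prior count. The factors by which the deposited values had been scaled were 1.08 and 1.11 in DCIS.COM pLOC-*MALINC1* and 0.945 to 1.02 elsewhere, and *RN7SL1* and *RN7SL2* took 8.22 and 11.5% of the reads there against 14.0 and 15.7% in DCIS.COM pLOC-empty. Without these RNAs in the totals the same 3 members were called in DCIS.COM.

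The fourth comparison sets DCIS.COM against MCF10A with the empty vector, and the fifth repeats it with *MALINC1*. They share their libraries with the comparisons above. With pLOC-empty all 5 members were higher in DCIS.COM, beside 15.6% of all genes. The log2 fold change was 3.24 (SE 0.20) for *APOBEC3B*, 3.65 (SE 0.096) for *APOBEC3C*, 1.73 (SE 0.19) for *APOBEC3D* and 4.30 (SE 0.20) for *APOBEC3F*, and the largest adjusted p among the members was 3.24e-06. With a pseudocount of 1 CPM the log2 fold change was 2.69 for *APOBEC3F* and 1.07 for *APOBEC3D*. *APOBEC3G* was at least 112-fold higher, taking the lowest DCIS.COM library against 3 reads in the smaller MCF10A library. It passed the expression filter through its DCIS.COM libraries alone, so that a difference between the lines was implied by its presence in the table.

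With pLOC-*MALINC1* the distances between the lines were smaller, and 4 of 5 members were called higher beside 14.4% of all genes. The log2 fold change was 2.21 (SE 0.20) for *APOBEC3B*, 1.31 (SE 0.096) for *APOBEC3C* and 2.54 (SE 0.20) for *APOBEC3F*, which had 1.45 with a pseudocount of 1 CPM. *APOBEC3G* was at least 5.14-fold higher. *APOBEC3D* had a log2 fold change of 0.69 (SE 0.19, adjusted p = 0.00564), short of 2-fold.

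Levels of different genes can be set side by side only per length, as CPM per kb of exon. In DCIS.COM pLOC-empty the order was *APOBEC3B* (13.3 ± 1.33 CPM per kb, SD, n = 2), *APOBEC3C* (10.9 ± 0.110), *APOBEC3G* (9.97 ± 0.625), *APOBEC3F* (1.54 ± 0.191) and *APOBEC3D* (1.09 ± 0.137), and no neighbours in this order overlapped. In DCIS.COM pLOC-*MALINC1* the levels were 6.85 ± 0.301 for *APOBEC3B*, 4.50 ± 0.0075 for *APOBEC3C*, 0.690 ± 0.0154 for *APOBEC3D*, 0.615 ± 0.0792 for *APOBEC3F* and 0.583 ± 0.298 for *APOBEC3G*, and the libraries of *APOBEC3G*, at 0.372 and 0.794, spanned those of both *APOBEC3D* and *APOBEC3F*. *APOBEC3G*, in the third place with pLOC-empty, could thus not be ordered against these 2 genes with pLOC-*MALINC1*.

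In MCF10A the highest members per length were *APOBEC3B* (1.37 ± 0.169 CPM per kb) and *APOBEC3C* (0.847 ± 0.0376) with pLOC-empty. With pLOC-*MALINC1* they were *APOBEC3C* (1.80 ± 0.0013) and *APOBEC3B* (1.50 ± 0.576), whose libraries overlapped.

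The 5 members together summed to 2.53 and 2.69 CPM per kb in MCF10A pLOC-empty and to 4.29 and 3.39 in MCF10A pLOC-*MALINC1*. In DCIS.COM the sum was 36.2 and 37.5 with pLOC-empty and 13.2 and 13.3 with pLOC-*MALINC1*. *APOBEC3G* made up 27.1% of the sum in DCIS.COM pLOC-empty and 4.40% in DCIS.COM pLOC-*MALINC1*, while the share of *APOBEC3B* was 36.1 and 51.8%. In reads, the family took 1675 and 1711 in the former group and 1040 and 1041 in the latter, from deeper libraries. Of all reads on genes, these were 0.00778 and 0.00830% in DCIS.COM pLOC-empty and 0.00326 and 0.00341% in DCIS.COM pLOC-*MALINC1*.

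**Figure D3:**
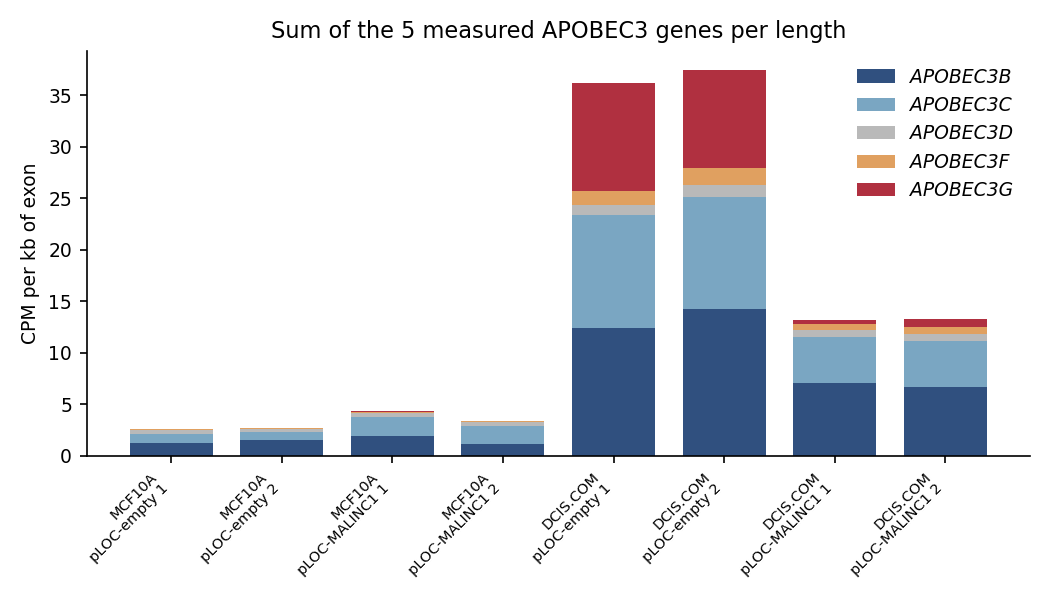
Sum of the 5 measured APOBEC3 genes in each library, as CPM per kb of exon from 0, with 1 bar for each library and 1 colour for each gene. The DCIS.COM pLOC-empty bars reach 36.2 and 37.5 and hold a broad *APOBEC3G* segment, which is narrow in the DCIS.COM pLOC-*MALINC1* bars of 13.2 and 13.3.

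Genes on either side of the cluster were set beside it. Of 24 neighbours from *KDELR3* to *TNRC6B*, 20 were in the table, with a median log2 fold change of 0.05 in DCIS.COM and -0.13 in MCF10A. In DCIS.COM, 2 of the 20 fell, beside 3.08% of all genes: *PDGFB*, a growth factor chain (-1.82, SE 0.11, adjusted p = 9.28e-08), and *SYNGR1*, a synaptic vesicle protein (-1.43, SE 0.21, adjusted p = 0.000157). In MCF10A, where *APOBEC3C* rose, 3 of the 20 (*NPTXR*, *CBX7* and *SYNGR1*) fell, beside 2.51% of all genes, and none rose. The falls of *NPTXR* and *SYNGR1* rest on few reads. *NPTXR* had at most 9 reads a library with pLOC-empty and 4 with pLOC-*MALINC1*, and *SYNGR1* at most 9 and 2. *CBX7* had at most 53 and 28 reads a library, with means of 1.72 ± 0.259 and 0.669 ± 0.258 CPM. Its log2 fold change was -1.41 (SE 0.24, adjusted p = 0.000322).

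The nearest measured neighbours were *CBX7* and *CBX6*, Polycomb subunits at 16.1 and 80.5 kb from the ends of the cluster. Their log2 fold changes in DCIS.COM were -0.38 (SE 0.24, adjusted p = 0.207) and 0.14 (SE 0.080, adjusted p = 0.182). Neither passed the test. Between the lines with pLOC-empty, 4 of the 20 neighbours were called higher in DCIS.COM, beside 15.6% of all genes, and none was called lower. They were *CBX7* (log2 fold change 1.84, SE 0.24), *CBX6* (4.49, SE 0.080), *NPTXR*, a neuronal pentraxin receptor (5.26, SE 0.35), and *SYNGR1* (4.74, SE 0.21). *NPTXR* and *SYNGR1* had at most 9 reads in a MCF10A pLOC-empty library, so that the size of their changes depends on the prior count. The APOBEC3 genes were higher in DCIS.COM in the same comparison, and a link with position was not tested.

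**Figure D4:**
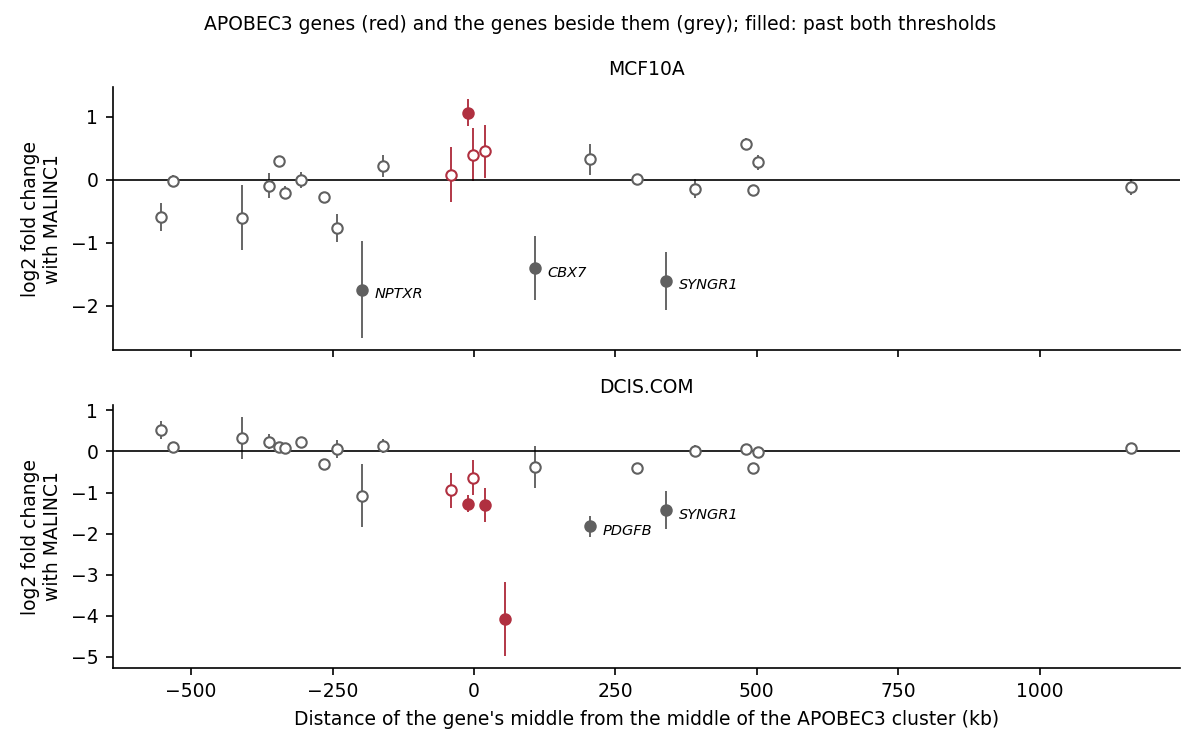
Log2 fold change with *MALINC1* (95% intervals) of the measured APOBEC3 genes (red) and of 20 neighbouring genes (grey) against the distance of each gene's middle from the middle of the cluster in kb, in MCF10A (top) and DCIS.COM (bottom); filled points passed both thresholds, and *APOBEC3G* has no point in MCF10A. In DCIS.COM the 5 red points lie below 0, with *APOBEC3G* at -4.08, and the filled neighbours are *PDGFB* and *SYNGR1*.

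Other deaminases gave 1 gene with changes like those of the family. Of 7 measured members of a list of 12, *ADARB1*, an adenosine deaminase that edits RNA, fell in DCIS.COM from 25.4 ± 1.58 to 10.2 ± 0.310 CPM (log2 fold change -1.32, SE 0.11, adjusted p = 1.02e-06), and the other 6 were not called with *MALINC1* in either line. In MCF10A its log2 fold change was 0.39 (SE 0.11, adjusted p = 0.00885), short of 2-fold. The 1 of 7 called lower in DCIS.COM stands beside 3.08% of all genes.

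Uracil left in DNA by these enzymes is removed by base excision repair. None of the 17 listed genes of uracil excision and abasic site repair, all measured, was called with *MALINC1* in either line. The list medians were -0.07 in MCF10A and 0.08 in DCIS.COM on the log2 scale. Over all genes 2.99% were called higher and 2.51% lower in MCF10A, and 1.44% higher and 3.08% lower in DCIS.COM.

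Other restriction factors were measured as well. Of 17 measured genes of 20 listed, none was called in MCF10A and 3 fell in DCIS.COM, beside 3.08% of all genes, with a list median of -0.02. *SLFN11*, which limits viral protein synthesis, had 2.76 ± 0.0224 CPM with pLOC-empty and at most 3 reads in either pLOC-*MALINC1* library, at least 30.1-fold lower. *IFITM1*, a membrane protein that hinders virus entry, fell from 22.7 ± 0.228 to 11.2 ± 0.196 CPM (log2 fold change -1.02, SE 0.22, adjusted p = 0.00265). *TRIM22* fell from 15.7 ± 0.444 to 7.80 ± 0.309 CPM (log2 fold change -1.01, SE 0.081, adjusted p = 8.95e-07).

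*BST2*, which tethers budding virions, had at most 3 reads in each MCF10A pLOC-empty library and 93.2 ± 2.70 CPM in DCIS.COM pLOC-empty, at least 686-fold higher. With *MALINC1* its level in DCIS.COM was 75.4 ± 0.886 CPM (log2 fold change -0.30, SE 0.13, adjusted p = 0.0717). It thus differed between the lines as *APOBEC3G* did, but was not called with *MALINC1* within either line. The difference of its change between the lines was called (-1.16, SE 0.18, adjusted p = 0.000212). It rests on at most 3 and 10 reads a library in MCF10A. Of the 17 genes, 4 were called lower in this difference, beside 5.22% of all genes. With pLOC-empty, 3 of the 17 were called higher in DCIS.COM, beside 15.6% of all genes, and 1 was called lower.

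Several APOBEC3 genes are inducible by interferon. Of 20 interferon receptors, kinases and transcription factors, all measured, *SOCS3*, a feedback inhibitor of cytokine signaling, was the only one called with *MALINC1*: it fell in DCIS.COM (log2 fold change -1.73, SE 0.17, adjusted p = 5.32e-06). The list median was -0.19 there and -0.08 in MCF10A. Over all genes 3.08% were called lower in DCIS.COM. *IFNGR2*, a chain of the interferon gamma receptor, showed a difference between the lines of -1.65 (SE 0.063, adjusted p = 9.45e-10), with 0.95 in MCF10A and -0.70 in DCIS.COM. For *SOCS3* this difference was -2.67 (SE 0.24, adjusted p = 2.32e-06). In it 2 of the 20 genes were called lower, beside 5.22% of all genes.

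Expression of *APOBEC3B* is known to respond to protein kinase C and NF-kB and to be held down by the DREAM complex. Of 19 measured genes of protein kinase C and NF-kB, *PRKCQ* rose in MCF10A, from at most 3 reads a library to 0.890 ± 0.143 CPM, at least 5.40-fold, and *BIRC3*, an inhibitor of the noncanonical NF-kB pathway, fell in DCIS.COM (-1.79, SE 0.051, adjusted p = 9.37e-11). Each was 1 of 19, beside 2.99% of all genes called higher in MCF10A and 3.08% called lower in DCIS.COM. *RELB*, a subunit of the noncanonical pathway, had a log2 fold change of -0.51 (SE 0.11, adjusted p = 0.00257) in DCIS.COM, short of 2-fold. The other NF-kB subunits there were also short of 2-fold. They had -0.70 (*NFKB2*, SE 0.057, adjusted p = 1.09e-06), -0.26 (*REL*, SE 0.093), -0.05 (*NFKB1*, SE 0.038) and 0.17 (*RELA*, SE 0.058).

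Among 19 genes of the DREAM complex, MYB and E2F, all measured, *E2F5* rose in MCF10A (1.11, SE 0.14, adjusted p = 3.43e-05) and none was called in DCIS.COM. The share of all genes called higher in MCF10A was 2.99%. Of 8 genes of the TEAD factors and their cofactors, the cofactors *VGLL3* (2.22, SE 0.074, adjusted p = 3.64e-10) and *VGLL1* (1.22, SE 0.17, adjusted p = 8.48e-05) rose in DCIS.COM, beside 1.44% of all genes.

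Markers of other cell types were few in the table. Of 7 fibroblast and 4 endothelial markers, only *COL1A1* and *PECAM1* were in the table. *COL1A1*, a collagen chain, fell with *MALINC1* in MCF10A from 15.5 ± 0.529 to 7.07 ± 0.546 CPM (log2 fold change -1.14, SE 0.13, adjusted p = 1.31e-05), and had 2.03 ± 0.0678 and 1.63 ± 0.0668 CPM in DCIS.COM. *PECAM1*, an adhesion molecule of endothelium and leukocytes, had 6.71 ± 0.810 CPM in DCIS.COM pLOC-empty and 0.204 ± 0.0636 in DCIS.COM pLOC-*MALINC1* (log2 fold change -5.07, SE 0.25, adjusted p = 1.13e-08), as *APOBEC3G* fell. With pLOC-empty it was also higher in DCIS.COM than in MCF10A, where it had 1.08 ± 0.0427 CPM (log2 fold change 2.64, SE 0.25, adjusted p = 6.18e-07). The leukocyte markers summed to 9.42 and 11.0 CPM in the former group and to 14.9 and 14.4 CPM in the latter, and *CD8A*, which was higher in DCIS.COM as the family was, had a log2 fold change of 0.14 (SE 0.37, adjusted p = 0.790) with *MALINC1* there. The part of other cells in the results was not tested.

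The genes with the most similar pattern were found by the root mean square difference of log2 CPM, centred on each gene's mean, over the 8 libraries and 13831 genes. For *APOBEC3F* they were *ICAM1* (0.14), *GNE* (0.16) and *SEMA6A* (0.23). For *APOBEC3C* they were *LINC00973* (0.16), *MOK* (0.18) and *PLEKHF1* (0.21), and for *APOBEC3B* *IL17RD* (0.20), *PTP4A3* (0.23) and *HIVEP3* (0.27). *APOBEC3G* was nearest to *SEMA6B* (0.57), *MTRNR2L1* (0.63) and *AP3B2* (0.64), which were farther from it than the nearest genes of the other members were from theirs.

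For none of these 4 members was another member among the 3 nearest genes. *APOBEC3D*, which stayed under 5 CPM, was not given nearest genes. The closest pairs were *APOBEC3B* with *APOBEC3C*, at 0.446, and *APOBEC3B* with *APOBEC3F*, at 0.453. Among the genes nearest to *APOBEC3B* they ranked 77 and 83. In turn *APOBEC3B* ranked 44 from *APOBEC3C* and 32 from *APOBEC3F*. *APOBEC3G* and *APOBEC3D* were the farthest apart, at 2.41. These distances are a description over libraries of 2 cell lines.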

How the data were processed

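RNA-seq of transduced MCF10A and DCIS.COM cells was analysed. Per the study's methods, the authors used Rsubread to align paired 76 nt reads to hg19 and featureCounts to assign them to UCSC genes. The authors deposited log2 CPM, normalized with edgeR. Tool versions, strand setting and handling of reads that match several genes are not given in the sources used here. The deposited values carry a prior count of 2, and whole reads were recovered from them (100% of values within 0.01).

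All 13842 genes reached 0.5 CPM in 2 libraries. A limma model (version 3.58.1, R 4.3.3) was fitted to them (eBayes with trend, 4 group means, Benjamini-Hochberg adjustment over all genes, two-sided). Genes were called at an adjusted p under 0.01 and over 2-fold. Residual degrees of freedom were 4 and prior ones 7.98. The steps were tested on simulated data. With log2 values no count model was used. A group with at most 3 reads in every library was taken as at the floor. Fold differences given as at least set the lowest library of the other group against 3 reads in the smaller library at the floor. Counting error is left out of them.

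Members and gene lists were chosen with earlier results of these data known. The text names all members, *MALINC1* and the 3 most similar genes of members reaching 5 CPM. Listed genes called with *MALINC1* within a line are named, except for markers of breast epithelium. Those called only in the other comparisons are not all named. Some uncalled genes that bear on a list are named too. Similar genes had to reach 1 CPM in 2 libraries. Intervals are 95%. Coordinates, exon lengths and sequences come from GRCh37 with GENCODE annotation. Python 3.11.15 was used with pandas 2.3.3, scipy 1.17.1 and matplotlib 3.10.9. Alternatives changed the pseudocount, filter, scaling, model and thresholds. The RT-qPCR and tissue data of the study were not used here.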

Additional observations from a re-analysis of the deposited data

Results flagged for a closer look

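The change from pLOC-empty to pLOC-*MALINC1* differed between the cell lines, by the test of the difference itself (DCIS.COM minus MCF10A, log2 scale, limma). This difference was -2.34 for *APOBEC3C*, -1.75 for *APOBEC3F*, -1.03 for *APOBEC3D* and -1.03 for *APOBEC3B*. An effect of *MALINC1* and a difference between the selected populations cannot be told apart here. For *APOBEC3G* the fitted difference was -4.29, a value that depends on the prior count because the MCF10A groups held 0 to 3 reads a library, and that is no bound.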

How the results depend on the processing

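Across 13 alternatives and 8 libraries left out in turn, 444 of the values of single members kept their direction and their side of the thresholds, 30 lost a call and 3 gained one. In MCF10A the count of called members was 0 with a pseudocount of 0.5 or 1 CPM. In DCIS.COM it was 5 at an adjusted p under 0.05 at any fold change, at which 22.7% of all genes were lower. For the difference between the lines it was 3 with a pseudocount of 0.5 or 1 CPM, with equal library medians, without *RN7SL1* and *RN7SL2* in the totals and without the authors' normalization factors, the last chosen after seeing the data, and 3 to 4 when 1 library was left out; *APOBEC3B* and *APOBEC3D* were those lost, and *APOBEC3C*, *APOBEC3F* and *APOBEC3G* remained in each. In both comparisons between the lines the count kept to 3 to 5. The log2 fold change of *APOBEC3B* in MCF10A was reversed without the first pLOC-empty library (-0.04) and without the first pLOC-*MALINC1* library (-0.31), and over all omissions it ranged from -0.31 to 0.47. A lone library was assumed to vary like the other groups. *APOBEC3G* in DCIS.COM against MCF10A, both with *MALINC1*, was 0.86 with a pseudocount of 1 CPM. That pseudocount also moved *APOBEC3G* with *MALINC1* in DCIS.COM to -3.14, and, between the lines, *APOBEC3F* to 2.69 with the empty vector and 1.45 with *MALINC1*, and *APOBEC3D* with the empty vector to 1.07, all in the same direction. The replicate numbers do not pair the samples, since the deviations of same-numbered libraries correlated from -0.07 to 0.04 between groups; with a replicate block 4 members were called for the difference between the lines, without *APOBEC3D* (-1.03, adjusted p = 0.0118), and no other call of a member changed. Depth limits *APOBEC3G* in MCF10A, where a change below 3 reads a library was not detectable.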
